A study of Mus musculus with 12 samples.

Results

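Cytochrome P450 enzymes are heme proteins of the endoplasmic reticulum and mitochondria that put an oxygen atom into fats, steroids, vitamins, bile acid precursors and foreign chemicals. Hepatocytes hold the most of them. Their genes are switched on there by liver-enriched factors and by receptors that sense drugs, bile acids, dioxin-like compounds and fatty acids. Stratified epithelia such as the esophagus are known for a small set of their own. The genes described here are all those whose matched symbol is Cyp followed by a digit: 74 genes on 100 probes, of 16535 genes with a matched probe and 41174 non-control probes. A gene with several probes, as 23 of the 74 had, is given by its brightest one, and the table used for matching lists 99 protein-coding mouse P450 genes in all.

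Liver and esophagus RNA of the same 6 male mice was measured, 1 array per organ and mouse. The 3 TG mice were Col1a1tetO-Nanog/+;Rosa26rtTA/+, carrying a Nanog transgene at Col1a1 that the rtTA activator made from Rosa26 switches on with doxycycline. The 3 CTR mice were Col1a1+/+;Rosa26rtTA/+ and so had the activator alone. All 6 were about 8 months old, of mixed 129Sv/C57BL6 background, and drank doxycycline at 0.2 mg/ml in 7.5% sucrose for 48 h, so none was free of doxycycline or rtTA. Rosa26 is active in most cell types, so the activator is not limited to 1 of them, and each sample is bulk organ RNA, in which fewer cells of a type and less RNA per cell cannot be told apart. Esophagus RNA and liver RNA were made with different kits, so the organ and the way its RNA was made cannot be told apart.

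Values are log2 signals after the 75th percentile of the array was subtracted. The share of probes read well above background ran from 56.4% to 81.8% over the arrays, whose small number limits the precision. Alb, the albumin gene of hepatocytes, ran from 9.71 to 10.13 in the livers and from -5.63 to -1.31 in the esophagi, and Krt4, a keratin of the esophageal lining, from -5.48 to -1.83 in the livers and from 7.58 to 8.18 in the esophagi, and every array matched its organ. None of the 12 arrays read the Nanog probe well above background, and no source used here says whether that probe lies within the transgene. Of the 74 P450 genes, 67 (90.5%) were well above background on all 6 liver arrays, against 52.6% of all genes and unnamed probes, and 49 (66.2%) on all 6 esophagus arrays, against 63.4%. In the esophagus 10 of the P450 genes had no probe well above background on any array. For Cyp7a1 and Cyp3a44 the brightest probe was not, while a second probe was on 4 of the 6.

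Some of the results below rest on gene pairs that the array may not separate. Upstream sequence is shown for those pairs and for Cyp1a1, taken from RefSeq in the GRCm38.p6 build, as the 250 bases before each annotated start, on the plus strand. Cyp2a4 and Cyp2a5 encode a steroid and a coumarin hydroxylase of nearly the same sequence, and Cyp2b9 and Cyp2b13 are close relatives of Cyp2b10, the P450 most used as a readout of the receptor CAR. These bases lie before the transcripts, so they do not show which transcripts a probe reads, and probe sequences were not compared. Capitals mark the bases that differ within a pair. For Cyp1a1, an aromatic hydrocarbon hydroxylase, they mark GCGTG, the core of the element bound by the aryl hydrocarbon receptor.
Cyp2a4 (chr7:26306942-26307191): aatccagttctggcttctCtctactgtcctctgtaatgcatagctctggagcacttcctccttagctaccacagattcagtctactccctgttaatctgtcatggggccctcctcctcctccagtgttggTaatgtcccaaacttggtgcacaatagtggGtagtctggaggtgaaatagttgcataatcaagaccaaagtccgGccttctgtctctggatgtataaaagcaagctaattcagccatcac
Cyp2a5 (chr7:26835089-26835338): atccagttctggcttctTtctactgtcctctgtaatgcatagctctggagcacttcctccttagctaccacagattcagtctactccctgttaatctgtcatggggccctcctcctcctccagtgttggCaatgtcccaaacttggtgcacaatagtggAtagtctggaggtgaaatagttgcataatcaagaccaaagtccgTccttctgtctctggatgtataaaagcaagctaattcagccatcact
Cyp2b9 (chr7:26173159-26173408): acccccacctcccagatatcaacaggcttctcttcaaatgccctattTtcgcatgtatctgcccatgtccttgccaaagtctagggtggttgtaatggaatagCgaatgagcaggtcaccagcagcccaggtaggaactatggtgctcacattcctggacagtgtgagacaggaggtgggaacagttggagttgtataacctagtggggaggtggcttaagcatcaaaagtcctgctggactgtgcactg
Cyp2b13 (chr7:26061245-26061494): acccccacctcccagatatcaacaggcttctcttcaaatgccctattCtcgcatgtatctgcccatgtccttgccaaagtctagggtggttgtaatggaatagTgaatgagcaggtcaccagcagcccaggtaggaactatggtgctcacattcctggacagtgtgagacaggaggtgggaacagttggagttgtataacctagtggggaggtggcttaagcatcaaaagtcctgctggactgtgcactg
Cyp1a1 (chr9:57697363-57697612): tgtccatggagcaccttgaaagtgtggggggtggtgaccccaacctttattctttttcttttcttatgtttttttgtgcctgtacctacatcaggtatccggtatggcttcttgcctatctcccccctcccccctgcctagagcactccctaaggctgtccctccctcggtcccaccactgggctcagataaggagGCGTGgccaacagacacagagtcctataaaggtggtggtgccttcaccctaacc
The Cyp2a4 and Cyp2a5 stretches differed at 4 of 249 compared positions after a shift of 1 base, and the Cyp2b9 and Cyp2b13 stretches at 2 of 250. The Cyp2b10 stretch matched that of Cyp2b9 at 71.0% of 262 aligned columns. Promoter entries were matched for 55 of the 74 genes, 64 entries in all. GCGTG, searched on both strands in those 250 bases, was in 14 of the 64 entries, among them Cyp1a1 and Cyp1b1 but not Cyp1a2, and in 28.2% of all 32851 entries. The TATA box motif TATAAA, searched the same way and with which GCGTG cannot overlap, was in 23 of the 64, including Cyp2a4, Cyp2a5 and Cyp1a1 but neither Cyp2b9 nor Cyp2b13, and in 12.4% of all entries.

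Most P450 genes were far higher in liver than in esophagus, whatever the genotype. Of the 70 tested, 56 (80.0%) were called higher in liver, against 43.6% of all tested genes, and 5 (7.14%) lower, against 27.8% (71.4% either way), at an adjusted p of 0.05 in limma's fit of all 12 arrays. The mean was higher in liver for 61 of the 70, against 59.3% of all genes, and the median log2 difference was 5.66 over the 70, against 0.34 over the 24438 genes tested. The other 4 P450 genes, Cyp2ab1, Cyp11a1, Cyp11b2 and Cyp19a1, were not well above background on all 3 arrays of any group and were not tested. By role, all 6 family 3 genes, 28 of 33 in family 2, 10 of 13 in family 4 and 5 of 6 genes of bile acid and oxysterol metabolism were called higher in liver.

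**Figure D1:**
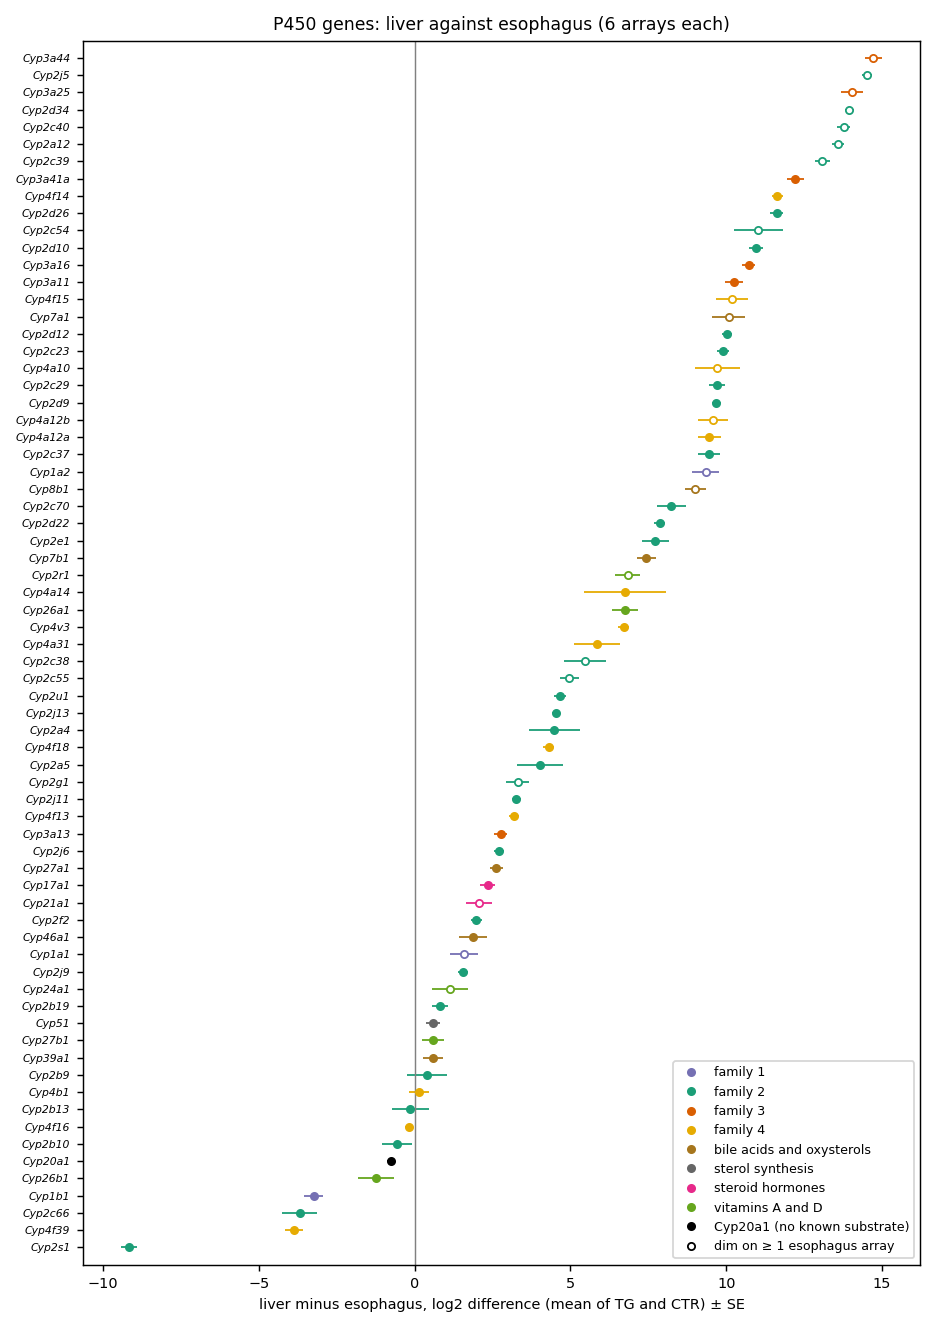
Liver minus esophagus difference of each of the 70 tested P450 genes on the log2 scale, averaged over TG and CTR, with bars for the standard error, coloured by role, and open points for genes dim on at least 1 esophagus array. Points run from Cyp2s1 at -9.17 to Cyp3a44 at 14.73, and most lie right of 0.

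Family 3 holds the main drug-metabolizing enzymes of liver. Cyp3a11 (NM_007818), the most studied of them in the mouse, ran from 6.76 to 7.94 in the 6 livers, median 7.21, against -3.48 to -2.49, median -2.92, in the 6 esophagi. The ranges lie far apart, a fold of 1217 with a log2 difference of 10.25 ± 0.28 (SE) and adjusted p 4.03e-10. Cyp3a41a differed by 12.22 ± 0.28 and Cyp3a16 by 10.72 ± 0.21 (adjusted p 1.31e-10 and 3.21e-11). No esophagus array read the brightest Cyp3a44 probe well above background, and it was at least 8854-fold higher in liver. Such a bound sets the liver mean against the lowest signal that still counted as above background on each esophagus array, or the probe's own signal where that was higher. It holds for this scaling alone, and some alternative fits gave smaller differences between the organs. The second Cyp3a44 probe, well above background on 4 liver and 4 esophagus arrays, differed between the organs by 0.88 ± 0.72 and did not pass (adjusted p 0.292), so the bound holds for 1 probe alone. Cyp3a41a, Cyp3a44 and Cyp3a16 are known as more abundant in female than in male mouse liver, and all were bright in these males. Which copies of this near-identical group each probe reads was not tested.

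Family 2, the largest P450 family of the mouse, handles foreign chemicals, steroids and arachidonic acid. Among its members measured on all 12 arrays the largest differences were those of the 2d genes. Cyp2d26 ran from 8.41 to 8.90 in liver, median 8.64, against -3.85 to -2.47 in esophagus, median -2.88, a fold of 3158 (11.62 ± 0.21, adjusted p 2.15e-11). Cyp2d10 differed by 10.95 ± 0.23 (adjusted p 7.24e-11), although its second probe gave 7.28. Cyp2e1, the ethanol-oxidizing P450, ran from 7.41 to 8.04 in liver, median 7.72, against -1.13 to 1.12 in esophagus, median 0.01, a fold of 212 (adjusted p 7.06e-08). With no esophagus array above background, liver was at least 5955-fold higher for Cyp2j5, an arachidonic acid epoxygenase. The bound was 4232-fold for Cyp2d34, 3332-fold for Cyp2a12 and 2808-fold for Cyp2c39.

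Family 4 enzymes hydroxylate the ends of fatty acids and leukotrienes. Cyp4f14, a leukotriene hydroxylase, ran from 6.01 to 6.38 in liver, median 6.23, against -5.91 to -4.88 in esophagus, median -5.49, a fold of 3202 (11.64 ± 0.17, adjusted p 7.78e-12). For Cyp4a10, a target of the fatty acid receptor PPARalpha, liver was at least 272-fold higher. Cyp1a2, the hepatic family 1 enzyme that oxidizes caffeine, ran from 2.64 to 4.15 in liver, median 3.24, and was well above background on 3 of 6 esophagus arrays, where it ran from -7.45 to -4.56 with a median of -6.09 (9.34 ± 0.43, adjusted p 2e-08).

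Bile acids are made from cholesterol by a classic route that Cyp7a1 limits and an acidic one that Cyp27a1 opens. Cyp7a1 by its brightest probe ran from 1.61 to 4.52 in liver, median 3.87, and was not well above background on any esophagus array. With this scaling it was at least 733-fold higher in liver (adjusted p 4.85e-08). In alternative fits its log2 difference fell as low as 6.59, against 10.08. Its second probe, well above background on 6 liver and 4 esophagus arrays, was 37.9-fold higher in liver (5.24 ± 0.49, adjusted p 4.49e-06). Cyp8b1, which steers synthesis to cholic acid, was at least 214-fold higher. Cyp27a1, a mitochondrial sterol hydroxylase found in many tissues, ran from 2.27 to 3.97 in liver, median 2.99, against 0.12 to 0.69 in esophagus, median 0.34. Its fold of 6.14 (2.62 ± 0.20, adjusted p 1.14e-06) was small beside those. Cyp51, the lanosterol demethylase of cholesterol synthesis, ran from 1.34 to 2.45 in liver, median 2.09, against 0.84 to 1.73 in esophagus, median 1.43. These ranges overlapped and the fold was 1.52 (0.60 ± 0.23, adjusted p 0.035), a call lost in 15 of 24 alternative fits, the one with the mouse as a block among them (adjusted p 0.096 with the block).

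The 5 P450 genes called lower in liver are named the esophagus set here, and all were well above background on all 6 esophagus arrays. The name stands for the organ, since which cells of the esophagus hold these transcripts was not tested. Cyp2s1 (NM_028775), known from skin and airway lining, ran from -3.79 to -1.82 in liver, median -3.07, against 5.88 to 6.45 in esophagus, median 6.12. Esophagus was 577-fold brighter (-9.17 ± 0.25, adjusted p 4.36e-10). Cyp4f39, the mouse counterpart of a human fatty acid hydroxylase needed for skin barrier lipids, ran from -2.90 to -0.74 in liver, median -1.31, against 2.07 to 2.64 in esophagus, median 2.47. Its ranges did not meet either (-3.87 ± 0.28, adjusted p 6.72e-07).

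Cyp2c66 ran from -4.17 to -0.48 in liver, median -2.37, against 0.10 to 2.87 in esophagus, median 1.33 (-3.70 ± 0.57, adjusted p 0.000194). Cyp1b1, a hydroxylase of estrogens and aromatic hydrocarbons, ran from -5.97 to -4.17 in liver, median -4.89, and was well above background on 2 of 6 liver arrays. In esophagus it ran from -2.59 to -0.95, median -1.74 (-3.25 ± 0.30, adjusted p 4.28e-06). Cyp20a1, which has no known substrate, differed least, at -1.44 to -0.88 in liver, median -1.23, against -0.64 to -0.22 in esophagus, median -0.43 (-0.75 ± 0.12, adjusted p 0.000272). The 9 tested genes that were not called either way were Cyp2b9, Cyp2b10, Cyp2b13, Cyp4b1, Cyp4f16, Cyp24a1, Cyp26b1, Cyp27b1 and Cyp39a1. By these brightest probes their log2 differences lay between -1.24 for Cyp26b1 and 1.13 for Cyp24a1. Cyp2b10 ran from -4.02 to -0.61 in liver, median -2.79, against -2.22 to -1.06 in esophagus, median -2.09 (-0.56 ± 0.48, adjusted p 0.31), and its liver range enclosed the esophagus range. Second probes of 2 of the 9 passed, at -1.64 for Cyp4f16 (adjusted p 0.00107) and 1.08 for Cyp2b13 (adjusted p 0.0397). Of the genes called higher in liver, Cyp2j11 had a second probe that was tested and did not pass, at 1.41 (adjusted p 0.0624).

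Between the genotypes, no P450 gene passed the test in liver. Limma called 0 of the 69 tested P450 genes at an adjusted p of 0.05, as it did 0% of all 21247 genes tested, and the smallest adjusted p of a P450 gene was 0.76. At an unadjusted p under 0.05 there were 5 of 69, 1 of them higher and 4 lower in TG, against 6.11% of all genes. The 3 TG and 3 CTR values did not overlap for Cyp2j9 and Cyp21a1, higher in TG in each mouse, and for Cyp27a1, lower in each. Over all genes, 8.5% were higher and 2.81% lower without overlap. The mean difference was above 0 for 22 of the 69 (31.9%), against 66.7% of all genes, and the median was -0.11, against 0.13. The scaling moved these medians: after quantile normalization the median over all genes was 0.02. The P450 median lay 0.24 below that of all genes with the 75th percentile and 0.20 below with quantiles.

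**Figure D2:**
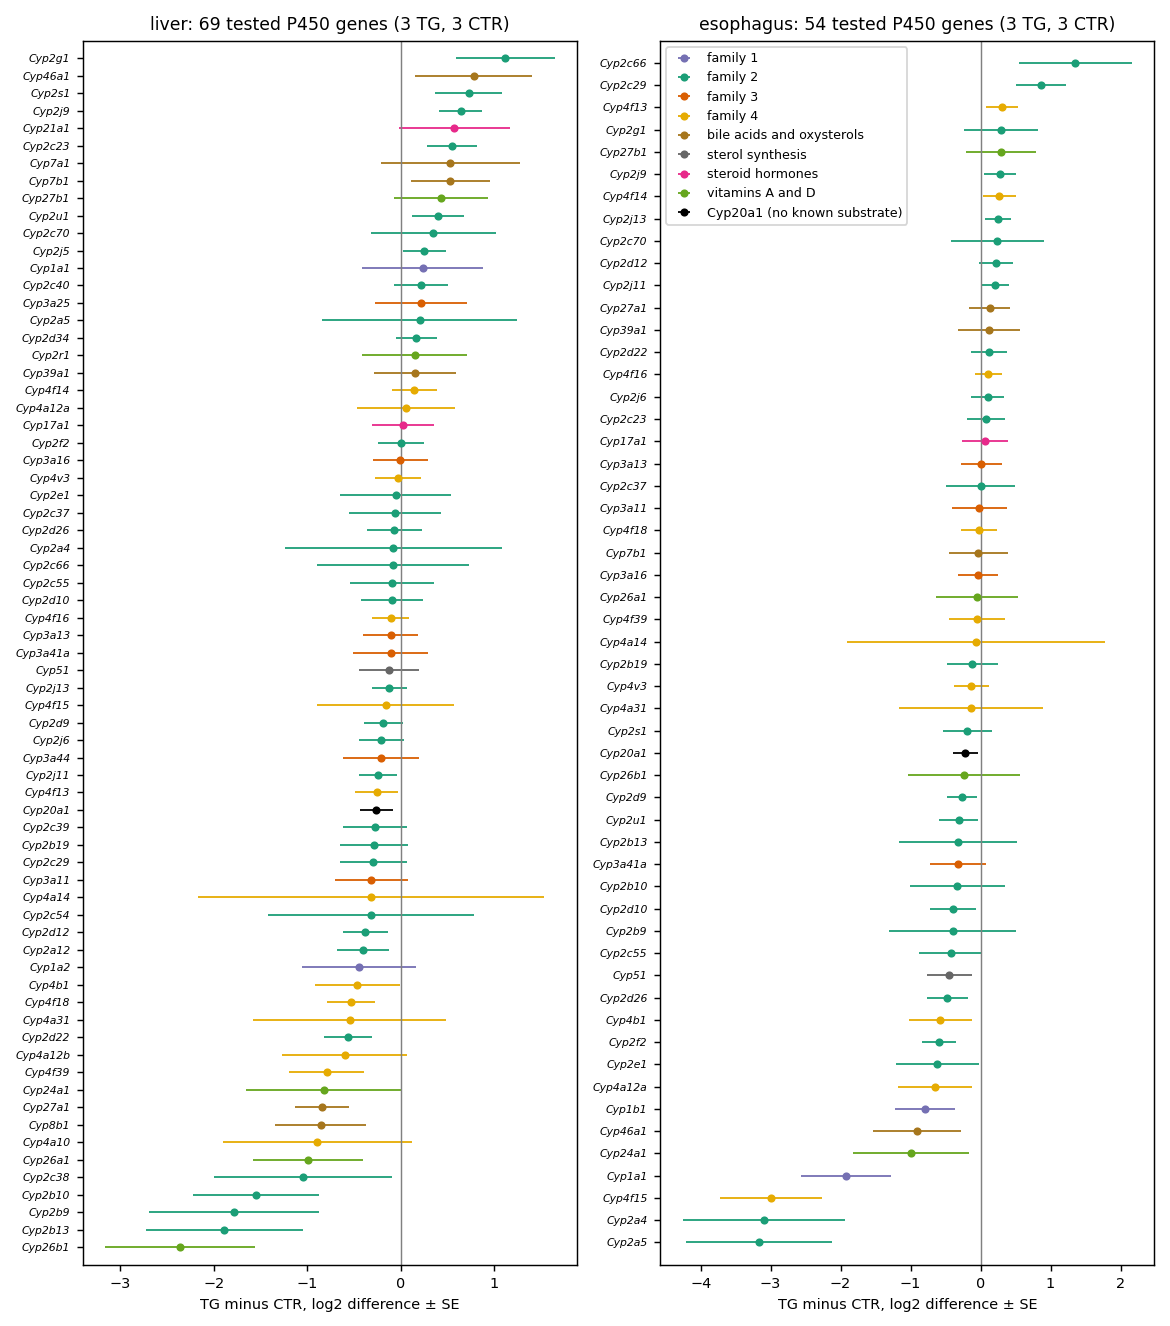
TG minus CTR difference of each tested P450 gene on the log2 scale with its standard error, in liver on the left (69 genes) and esophagus on the right (54 genes), coloured by role. In liver most points lie left of 0, and in esophagus the longest stretch left is that of Cyp2a5, Cyp2a4 and Cyp4f15.

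Among the genes of bile acid and oxysterol metabolism, 4 of 6 had a mean difference above 0, with a median of 0.34. Cyp27a1 measured 2.98, 2.51 and 2.27 in TG livers, against 3.00, 3.30 and 3.97 in CTR livers. Every TG value lay below every CTR value, with TG1 and CTR1 nearly touching, and the difference of -0.84 ± 0.29 did not pass (adjusted p 0.76). Cyp8b1 measured 1.70, 1.16 and 0.69 in TG livers, against 0.96, 2.91 and 2.24 in CTR livers, with the lowest CTR value inside the TG range (-0.86 ± 0.48).

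Cyp7a1 measured 4.52, 2.55 and 3.91 in TG livers, against 1.61, 3.83 and 3.95 in CTR livers (0.53 ± 0.74). One low liver in each genotype, TG2 and CTR1, made its range wide. The differences of Cyp7b1, an oxysterol hydroxylase, and Cyp46a1, a cholesterol hydroxylase best known from brain, were 0.53 ± 0.42 and 0.78 ± 0.63. Cyp51 differed by -0.12 ± 0.32, with the sign turned with array weights and without TG3 or CTR1.

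In family 2, 10 of 33 mean differences were above 0, with a median of -0.10. Cyp2j9, of the arachidonic acid-metabolizing 2j subfamily, measured 2.09, 1.47 and 1.74 in TG livers, against 1.15, 1.15 and 1.08 in CTR livers. It did not pass at 0.64 ± 0.23 (adjusted p 0.76). Cyp2b10 measured -3.49, -4.02 and -2.24 in TG livers, against -3.34, -0.61 and -1.16 in CTR livers. The 2 highest values were both CTR, but CTR1 lay among the TG mice (-1.55 ± 0.68, adjusted p 0.76).

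Cyp2b13 measured -3.25, -3.23 and -1.22 in TG livers, against -2.56, 1.13 and -0.62 in CTR livers (-1.89 ± 0.84, adjusted p 0.76). Its second probe gave -0.52. Cyp2b9 measured -1.13, -1.10 and 0.97 in TG livers, against -0.63, 3.43 and 1.29 in CTR livers (-1.78 ± 0.91), and its second probe gave -1.17. All 3 genes were highest in CTR2. Cyp2b9 and Cyp2b13 are close copies, and whether each probe reads its own transcript alone was not tested. Cyp2d22 measured 4.11, 3.84 and 3.91 in TG livers, against 3.94, 4.88 and 4.72 in CTR livers (-0.56 ± 0.25). The other family 2 genes with the smallest p were Cyp2g1 at 1.12 ± 0.53, Cyp2s1 at 0.73 ± 0.36, Cyp2c23 at 0.55 ± 0.27 and Cyp2u1 at 0.39 ± 0.28.

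The 8 family 2 and 3 genes listed as targets of CAR and PXR, the receptors of drugs and other foreign chemicals, all had a mean difference below 0, with a median of -0.30 and 0 called. Relative to the CTR mean, the list's median was -0.68, -0.69 and -0.0054 in TG1, TG2 and TG3, against -0.64, 0.56 and 0.14 in CTR1, CTR2 and CTR3, so CTR1 lay with TG1 and TG2. Cyp3a11 measured 6.76, 6.81 and 7.82 in TG livers, against 6.79, 7.94 and 7.62 in CTR livers (-0.32 ± 0.39). The other family 3 genes with the smallest p were Cyp3a13, Cyp3a25 and Cyp3a44, with differences between -0.21 and 0.21. Cyp1a2 measured 3.27, 2.64 and 3.20 in TG livers, against 2.97, 3.33 and 4.15 in CTR livers (-0.45 ± 0.61), and Cyp1a1 differed by 0.23 ± 0.65.

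**Figure D3:**
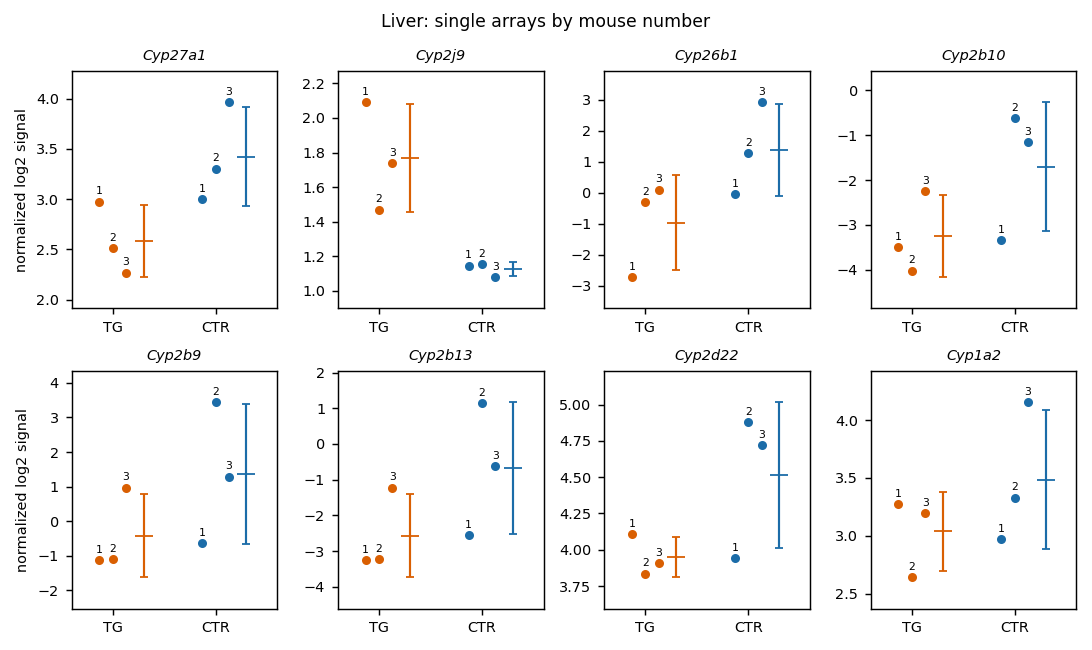
Normalized log2 signal of 8 P450 genes on each liver array, TG left and CTR right, numbered by mouse within the genotype, with mean and SD (n = 3) as a bar beside the points. Cyp27a1 and Cyp2j9 do not overlap between the genotypes, while in the other 6 panels at least 1 mouse lies within the other genotype's range.

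In family 4, 2 of 13 mean differences were above 0, with a median of -0.32. The smallest p were those of Cyp4f18 (-0.53 ± 0.26), Cyp4f39 (-0.79 ± 0.40), Cyp4f13 (-0.26 ± 0.23) and Cyp4b1 (-0.46 ± 0.45), none of which passed. Of the retinoic acid and vitamin D enzymes, 2 of 5 lay above 0. Cyp26b1, which breaks down retinoic acid, measured -2.72, -0.29 and 0.10 in TG livers, against -0.03, 1.27 and 2.92 in CTR livers. This was the largest mean difference of any tested P450 gene in liver, but TG3 lay above CTR1 (-2.36 ± 0.80, adjusted p 0.76). The Cyp26b1 signal ranged over 5.64 in the livers but 0.80 in the esophagi, and the ± draws on both. Cyp26a1, its relative, measured 0.01, 2.03 and 0.10 in TG livers, against 2.58, 0.61 and 1.94 in CTR livers (-0.995 ± 0.59).

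Cyp24a1 and Cyp27b1, which break down and make active vitamin D, differed by -0.82 ± 0.83 and 0.43 ± 0.50. Of the steroid hormone genes, Cyp17a1 differed by 0.03 ± 0.33 and Cyp21a1, at -2.83, -2.52 and -2.82 in TG livers against -3.04, -3.22 and -3.62 in CTR livers, by 0.57 ± 0.60. The genotypes did not overlap for Cyp21a1, with TG1 and CTR1 closest. Its signal ranged over 1.11 in the livers and 2.16 in the esophagi, and the ± draws on both. Alternatives other than leaving out 1 array gave 0.026 to 0.77 for Cyp21a1. Cyp20a1 differed by -0.26 ± 0.17. One array pair shared a slide, TG3 and CTR2, and within it the differences were -1.04 for Cyp27a1, 0.59 for Cyp2j9, -1.63 for Cyp2b10 and -1.17 for Cyp26b1.

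The P450 genes varied among the livers, and 1 mouse of each genotype stood apart for many of them. The median range over the 6 livers was 1.16 for the tested P450 genes, against 0.90 for all tested genes. The livers TG2 and CTR1 were the 2 lowest of the 6 for 28 of the 69 genes (40.6%), against 12.1% of 21203 genes, and the 2 highest for 6 (8.70%), against 11.3%. This pair was chosen after the values were seen, so these counts and those below describe the data and test nothing. All the genes were read in the same 6 mice and are not separate evidence. Cyp4a14, a fatty acid hydroxylase under PPARalpha, measured 4.17, -0.15 and 5.60 in TG livers, against -0.41, 7.28 and 3.71 in CTR livers. TG2 and CTR1 stood well below all other livers. Cyp4a10 measured 2.32, -0.22 and 2.45 in TG livers, against 0.35, 4.54 and 2.33 in CTR livers.

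Cyp2a4 measured 8.57, 5.84 and 8.89 in TG livers, against 5.63, 9.38 and 8.53 in CTR livers. Cyp2a5 measured 9.05, 6.59 and 9.004 in TG livers, against 5.998, 9.28 and 8.76 in CTR livers. Both were lowest in TG2 and CTR1, and whether their probes tell these close copies apart was not tested. Cyp2c70, a bile acid hydroxylase of the mouse, went the other way, at 6.05, 8.17 and 6.77 in TG livers and 7.54, 5.41 and 6.98 in CTR livers. Cyp7b1 was also highest in TG2 and CTR1, at 6.33, 7.67 and 6.40 in TG livers and 6.84, 5.38 and 6.59 in CTR livers, as was Cyp26a1 by the values above. These genes, apart from those of the naming rule, were chosen after their values were seen.

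Of the 13 tested circadian clock genes, 8 had TG2 and CTR1 as the 2 lowest livers and 3 (Arntl, Clock and Nfil3) as the 2 highest, against the 12.1% and 11.3% of all genes given above. The clock genes named next were chosen after their values were seen. Per2, a clock repressor, measured 0.63, -1.77 and 0.67 in TG livers, against -1.64, 0.96 and 1.23 in CTR livers, and Ciart, another, was at 0.21, -4.34 and 0.42 in TG livers, against -3.87, 0.33 and 0.23 in CTR livers. Dbp, a clock output factor that binds P450 promoters, measured 6.97, 4.38 and 7.15 in TG livers, against 4.74, 5.87 and 5.59 in CTR livers. Their part in the P450 values was not tested. The electron donor Por, which serves the P450 enzymes of the endoplasmic reticulum, was lowest in the same mice, at 6.42, 5.68 and 7.004 in TG livers and 5.28, 7.55 and 7.49 in CTR livers. So was CAR itself (Nr1i3), at 2.93, 1.27 and 3.24 in TG livers and 1.56, 3.54 and 3.17 in CTR livers. Por and Nr1i3 were also chosen after their values were seen. Of 9 tested electron donor and heme genes, 5 had TG2 and CTR1 as the 2 lowest livers and 0 as the 2 highest. Of 19 tested receptors and factors of P450 genes, 6 had them as the 2 lowest and 3 (Foxa2, Onecut1 and Stat5b) as the 2 highest.

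Without TG2 and CTR1, an alternative chosen after seeing the data, limma still called 0 P450 genes in liver. The differences were then -1.98 for Cyp2b10, -2.49 for Cyp2b13, -3.40 for Cyp26b1, -1.01 for Cyp27a1 and 0.80 for Cyp2j9, and the smallest adjusted p was 0.274.

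**Figure D4:**
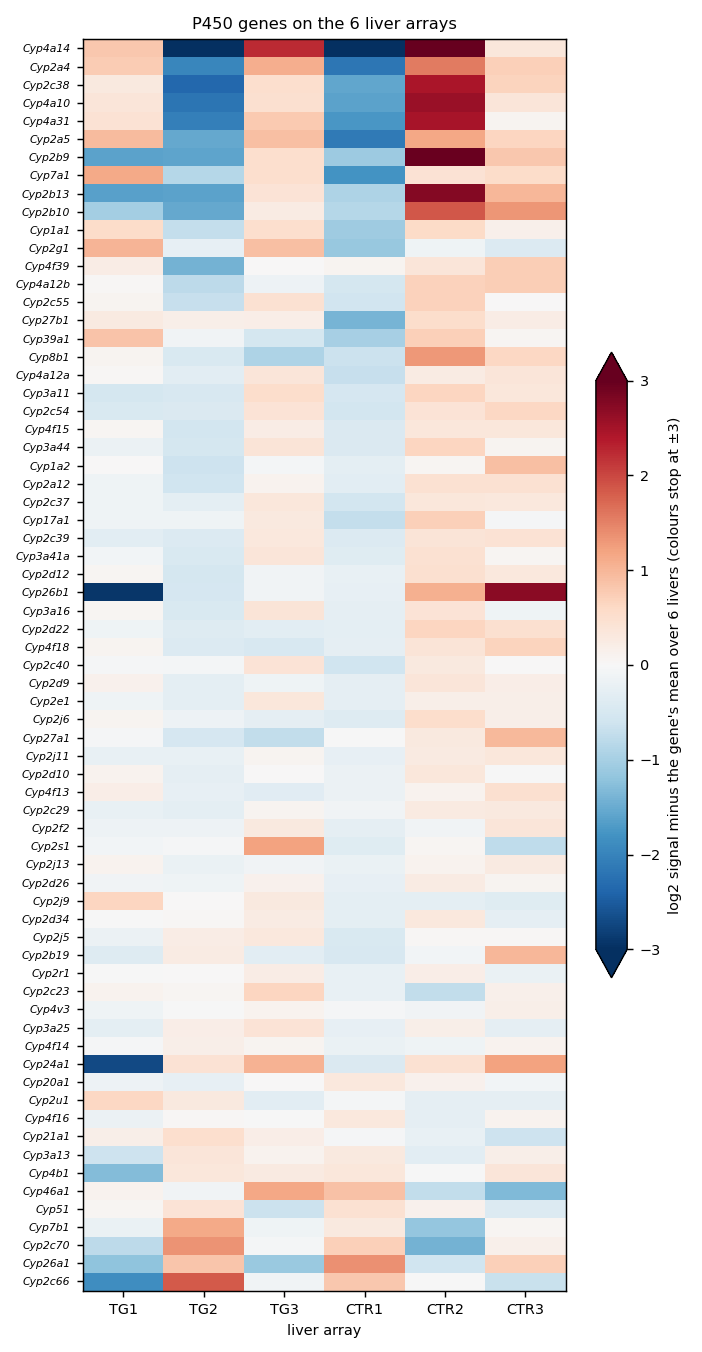
Log2 signal of the 69 P450 genes tested in liver on each of the 6 liver arrays, as the difference from the gene's mean over the 6 livers (blue below, red above), with TG arrays left and CTR arrays right and genes ordered by TG2 plus CTR1. In the top row Cyp4a14 is blue in TG2 and CTR1 alone, where its signal before the mean was subtracted was -0.15 and -0.41. The rows of Cyp2b9, Cyp2b13 and Cyp2b10 are blue in TG1 as well, and the lowest rows are red in TG2 and CTR1.

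In esophagus no P450 gene passed either. Limma called 0 of the 54 tested P450 genes, as it did 0% of the 23208 genes tested, and the smallest adjusted p among the 54 rounded to 1. At an unadjusted p under 0.05 there were 6 of 54, 1 higher and 5 lower in TG, against 3.18% of all genes. With the esophagus arrays alone, 7 of 54 P450 genes and 1225 of 23208 genes had an unadjusted p under 0.05. The genotypes did not overlap for 7 genes lower in TG (12.96%), against 5.63% of all genes, and for 2 higher (3.70%), against 6.94%. Of the 7, Cyp4f15 and Cyp24a1 were well above background on 0 TG arrays and on all 3 CTR arrays. They were thus tested through the CTR group alone, where they are high. Cyp2a4 and Cyp2a5 are also among the 7, and their probes may not read separate transcripts. The mean difference was above 0 for 19 of 54 (35.2%), against 51.3% of all genes, with a median of -0.09, against 0.01.

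The largest differences were those of the 2a pair. Cyp2a5 measured 1.25, 3.57 and 2.71 in TG esophagi, against 7.05, 4.56 and 5.41 in CTR esophagi (-3.16 ± 1.05, adjusted p 1). Cyp2a4 measured 0.52, 2.81 and 2.01 in TG esophagi, against 6.46, 3.80 and 4.39 in CTR esophagi (-3.10 ± 1.16, adjusted p 1), and its other probes gave -3.18 and -2.85. All CTR values of both genes lay above all TG values, with CTR1 highest and TG1 lowest. Their upstream stretches differ at 4 of 249 bases, but those bases lie before the annotated start and do not show what a probe reads. Whether the probes tell the 2 transcripts apart was not tested.

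Cyp4f15, a family 4 hydroxylase, measured -7.39, -6.83 and -7.26 in TG esophagi, where it was not well above background on any array, against -2.05, -5.47 and -4.98 in CTR esophagi, where it was on all 3. With each TG value raised to the lowest signal that counted as above background on its array, the CTR mean was 3.80-fold higher. That fold holds for this scaling alone, and CTR1 raised the CTR mean. The fitted difference of -2.99 ± 0.73 had an adjusted p of 1. Without CTR1 that difference was -1.93, and it was -0.71 with normexp background and quantile normalization and -0.65 with a common floor. Cyp2f2, the naphthalene-oxidizing P450 of airway club cells, measured 6.09, 6.09 and 6.27 in TG esophagi, against 7.14, 6.50 and 6.57 in CTR esophagi (-0.59 ± 0.25). Cyp1a1 measured -6.08, -4.64 and -6.27 in TG esophagi, where 1 of 3 arrays was well above background, against -3.69, -2.81 and -4.74 in CTR esophagi (-1.92 ± 0.65). TG2 lay just above CTR3, so the genotypes overlapped. For Cyp1a1 the alternatives other than leaving out 1 array gave -2.40 to -0.51.

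Cyp1b1, whose 250 bases also hold GCGTG, measured -2.59, -1.61 and -2.26 in TG esophagi, against -0.95, -1.25 and -1.87 in CTR esophagi (-0.80 ± 0.43). Its genotypes overlapped as well. The other genes lower in every TG esophagus were Cyp2d9 (-0.27 ± 0.21), Cyp20a1 (-0.22 ± 0.17) and Cyp24a1. For Cyp24a1, dim on all 3 TG arrays, the CTR mean was 1.56-fold higher when compared as for Cyp4f15, with this scaling. Alternatives other than leaving out 1 array gave -0.23 to -0.038 for Cyp20a1. Cyp2c66, one of the esophagus set, measured 2.87, 1.82 and 1.47 in TG esophagi, against 0.10, 1.18 and 0.82 in CTR esophagi (1.35 ± 0.81, adjusted p 1). Cyp2j13 also lay higher in every TG esophagus (0.25 ± 0.19), while its dimmer probes gave -0.04 and -0.96.

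Cyp2c29, at -1.33, -2.05 and -2.87 in TG esophagi against -3.36, -2.73 and -2.76 in CTR esophagi, overlapped at TG3 (0.87 ± 0.36). Cyp2j9 and Cyp4f13 differed by 0.27 ± 0.23 and 0.31 ± 0.23. The rest of the esophagus set differed by less than their standard errors, Cyp2s1 by -0.19 ± 0.36 and Cyp4f39 by -0.05 ± 0.40. Cyp2s1 measured 6.10, 5.93 and 6.14 in TG esophagi, against 5.88, 6.40 and 6.45 in CTR esophagi. One array pair shared a slide, TG1 and CTR2, and within it the differences were -3.32 for Cyp2a5, -1.92 for Cyp4f15, -3.27 for Cyp1a1, -0.42 for Cyp2f2 and 1.69 for Cyp2c66.

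Markers of tissues that lie beside the esophagus were read in the same arrays, and limma called 0 of the tested airway, heart and fat markers between the genotypes. At an unadjusted p under 0.05 there were 4 of 5 airway and lung, 4 of 5 heart and 4 of 6 fat markers, against 3.18% of all genes. The airway gene Scgb1a1 measured -0.57, 2.49 and -0.32 in TG esophagi, against 5.81, 2.89 and 2.76 in CTR esophagi, and 1 of the 5 tested airway and lung markers, Sftpb, had a mean difference above 0. The summed signal of those markers was -0.15, 4.87 and 0.03 in TG esophagi, against 7.87, 4.75 and 5.47 in CTR esophagi. For the 5 heart markers it ran from 2.79 to 3.09 in TG esophagi, against 3.75 to 7.24 in CTR esophagi, and for the 6 fat markers from 5.26 to 7.04 in TG esophagi, against 6.64 to 7.10 in CTR esophagi. The summed signal of the 6 markers of esophageal epithelium ran from 8.84 to 9.32 in TG esophagi, against 8.89 to 9.35 in CTR esophagi. That of the 7 tested hepatocyte markers ran from -1.10 to -0.65 in TG esophagi, against -0.34 to 0.64 in CTR esophagi. Of these 7, limma called 0, while 5 had an unadjusted p under 0.05. Their median difference was -1.06, and 0 had a mean difference above 0. The part of the airway, heart, fat and hepatocyte markers in the P450 differences was not tested. Without TG2 and CTR1, the esophagi with the strongest airway signal of their genotype and an alternative chosen after seeing the data, Cyp2a5 differed by -3.01, Cyp4f15 by -2.10 and Cyp2f2 by -0.36, and 0 P450 genes were called.

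**Figure D5:**
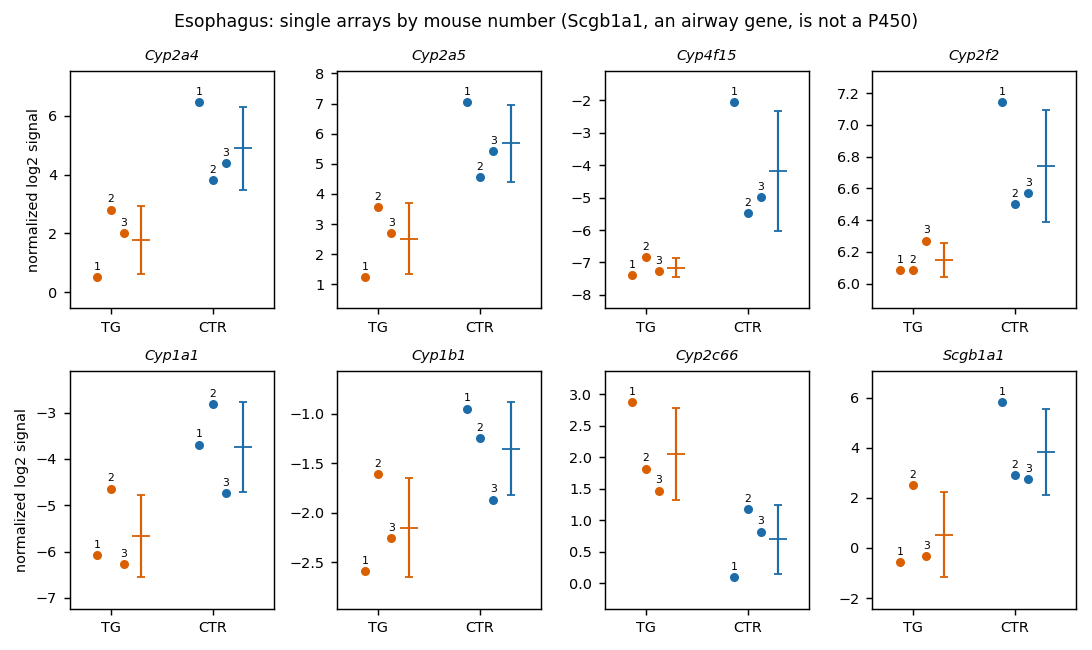
Normalized log2 signal of 7 P450 genes and the airway gene Scgb1a1 on each esophagus array, TG left and CTR right, numbered by mouse within the genotype, with mean and SD (n = 3) as a bar beside the points. CTR1 is highest for Cyp2a4, Cyp2a5, Cyp4f15, Cyp2f2 and Scgb1a1, and lowest for Cyp2c66.

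The TG minus CTR difference itself was compared between liver and esophagus, a contrast of all 4 groups. Limma called 0 of 70 P450 genes, as it did 0% of 24438 genes, with 7 of 70 at an unadjusted p under 0.05 against 4.05% of all genes. Cyp2c40 had the smallest p, at 2.13 ± 0.41, but it was not well above background in TG esophagi and only on 2 of 3 CTR arrays there, and its second probe differed by 0.13 in esophagus. Cyp4f15 followed at 2.83 ± 1.03 and Cyp1b1 at 1.497 ± 0.60. On the other side Cyp27a1 stood at -0.97 ± 0.41, having measured 0.69, 0.24 and 0.42 in TG esophagi against 0.12, 0.58 and 0.26 in CTR esophagi, and Cyp2c29 at -1.16 ± 0.51 and Cyp2d22 at -0.68 ± 0.36. None of these differences between the organs passed the test.

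Other genes of the pathway did not pass either. Limma called 0 of the 9 tested electron donor and heme genes, 0 of 19 receptors and factors of P450 genes in liver and 0 of 18 in esophagus, and 0 of the 13 and 14 tested clock genes. At an unadjusted p under 0.05 the counts were 0 for electron donors and heme in either organ, 0 and 1 for receptors and factors in liver and esophagus, and 0 and 2 for the clock. Of the heme genes, Alas1, the rate-limiting enzyme of heme synthesis, measured 5.63, 4.89 and 5.58 in TG livers, against 5.05, 6.86 and 7.29 in CTR livers. Ahr, the aryl hydrocarbon receptor, measured 2.43, 1.93 and 2.44 in TG livers, against 1.73, 1.88 and 1.65 in CTR livers, and no CTR liver reached the lowest TG liver (0.51 ± 0.23, adjusted p 0.76). Nr1i2, which encodes PXR, measured -6.27, -6.24 and -5.96 in TG esophagi, against -3.97, -5.41 and -4.53 in CTR esophagi. Its TG1 and TG2 values lay below the lowest signal that counted as above background on those arrays (-5.84 and -6.14). The size of the Nr1i2 difference therefore rests on signal near background. The pericentral genes, which mark the liver zone where many P450 enzymes sit, had a median difference of 0.37 in liver, against 0.13 over all genes. Of the 7 tested, 4 lay above 0, against 66.7% of all genes. Limma called 0 of the 7, and 2 had an unadjusted p under 0.05, against 6.11% of all genes. Of these pericentral genes, Tbx3 measured 4.45, 3.69 and 3.98 in TG livers, against 3.14, 2.79 and 2.93 in CTR livers, without overlap (1.09 ± 0.24, adjusted p 0.76). The 5 tested periportal genes had a median of -0.05, with 2 above 0. Of the genes with the smallest p in the other lists, the differences in liver were 0.28 for Hmox1, the heme-degrading oxygenase, 0.51 for the coactivator Ppargc1a, 0.68 and -0.70 for the clock repressors Nr1d1 and Cry1, 0.72 for the Wnt target Axin2, and -0.49 and 0.37 for the periportal Hsd17b13 and Cdh1. In esophagus they were 0.30 for the electron carrier Fdx1, -0.39 for Alas1, -2.85 for the endoderm factor Foxa2, -1.24 for the clock output factor Hlf, -2.06 for Per2, -0.79 for the pericentral glutamine synthetase Glul, 0.52 for Tbx3, and -0.35 and -0.08 for the prostacyclin and thromboxane synthases Ptgis and Tbxas1. Of the periportal genes, Sds, a serine dehydratase, differed by -1.09. Hal, which breaks down histidine, measured 0.82, 1.41 and 1.37 in TG esophagi, against -4.25, -4.88 and 1.65 in CTR esophagi (3.69 ± 1.35, adjusted p 1). The highest Hal value was CTR3, so the genotypes overlapped. Tbxas1 differed by -0.37 in liver. None of these passed.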

How the data were processed

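RNA of liver and esophagus from 6 mice was hybridised to 12 Agilent 4x44K arrays of 1 colour (design 014868), 3 for each organ and genotype. The deposited intensity values are processed signals from Feature Extraction 10.7.1.1, per the file headers. The deposited well-above-background flags are scores of 0 or 1 from the same program, per the file headers. The authors' deposited table of log2 values, made with limma per the submitters' processing notes, was an alternative; its columns have medians of 7.27 and correlate above 0.999 with normexp plus quantile values, and 0 of its columns lacked a sample.

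Signals were log2-transformed and the 75th percentile of each array (8.91 to 10.14) was subtracted. Outlier spots (1311) were left out, and 0 were saturated. Probes were named by matching accessions to RefSeq GRCm38.p6 gene tables; the array's own mm8 coordinates were not used. The brightest probe stood for a gene. A gene was tested where all 3 arrays of at least 1 compared group were well above background. Limma 3.58.1 in R 4.3.3 (lmFit, eBayes, 4 groups, two-sided, Benjamini-Hochberg at 0.05 over all genes tested) gave differences, standard errors (±) and adjusted p. The 4 groups shared 1 spread per gene, so a standard error in 1 organ also carries the arrays of the other. The arrays are separate mice within a group, and both organs came from the same mice, per the labels, so the organs are paired by mouse. The adjusted p values given between organs come from the limma fit without that pairing. With the mouse as a block, the smallest adjusted p of a P450 gene between organs was 4.12e-07, against 1.79e-12. For single genes the block is given where it changed a call. Sequences and figures used Python 3.11.15, pandas 2.3.3, Biopython 1.88 and matplotlib 3.10.9.

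The members and lists were chosen with earlier results of these data known. Named genes were 6 fixed ones (Cyp1a2, Cyp2b10, Cyp3a11, Cyp7a1, Cyp27a1, Cyp51), the 5 smallest p per direction in each genotype contrast, the 6 largest organ differences per direction and those measured in esophagus only, the 3 smallest p per direction between the organs, up to 4 per role, up to 2 per other list, and those without overlap. Others were chosen after their values were seen.

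On simulated data with 50 genes changed by each log2 size, the liver contrast (21247 genes) recovered 12% at 1, 80% at 2, 90% at 3 and 100% at 4, and the esophagus contrast (23208 genes) 14%, 62%, 80% and 96%. The changed genes were drawn from all tested genes and changed at once, with independent normal noise at each gene's fitted spread. P450 genes varied more among the livers (median range 1.16 against 0.90), so these shares need not hold for them. Alternatives covered background and normalization, the dim-probe filter, a common floor, slide, replicate number, array weights, the arrays fitted and each array left out. Normexp used the median signal, since the files hold no mean signal column. Same-numbered TG and CTR arrays of an organ, which are different mice, did not deviate together from their group means. Their correlations ran from -0.14 to 0.09 in liver and from -0.15 to 0.08 in esophagus. For liver and esophagus of the same mouse they ran from -0.05 to 0.16 in TG and from -0.06 to 0.07 in CTR. Livers TG2 and CTR1, of unlike number, had a correlation of 0.28.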

Additional observations from a re-analysis of the deposited data

How the results depend on the processing

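In the 24 alternative fits of each organ and the 23 of the difference between organs, 0 P450 genes were called between the genotypes, and 50 to 58 were called higher and 5 to 6 lower in liver than in esophagus. Over all genes a common floor gave 27 calls in liver and 8 in esophagus, against 0. The gap between the P450 median and that of all genes in liver ran from -0.49 to -0.17. Between the organs, the sizes of the differences moved more than the calls. Apart from fits that left out 1 array, the lowest difference was 6.59 for Cyp7a1, against 10.08 in the main fit. It was 6.12 for Cyp1a2, against 9.34, and 8.82 for Cyp4f14, against 11.64. For Cyp2s1 these fits ran from -9.73 to -8.89. With the replicate number as a block, 0 P450 genes were called between the genotypes in liver or esophagus, and with the mouse as a block 60 were called between the organs, all 60 among the 61 called without it and in the same direction, with Cyp51 lost.

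Small liver differences turned sign, and the cause was not tested. With slide as a fixed block, Cyp17a1 was at -0.25, Cyp27b1 at -0.16 and Cyp7a1 at -0.025, and with slide as a random block Cyp17a1 was at -0.0088. With array weights the values were -0.15 for Cyp17a1, -0.28 for Cyp1a1, 0.0063 for Cyp3a13, 0.27 for Cyp51 and -0.30 for Cyp7a1. Cyp1a1 was at -0.12 with normexp and quantile, -0.14 with quantile alone and -0.11 in the authors' deposited table. Without livers TG2 and CTR1, Cyp17a1 was at -0.25 and Cyp27b1 at -0.14. Leaving out 1 array each gave ranges of -0.32 to 0.39 for Cyp17a1, -0.25 to 0.65 for Cyp1a1, -1.55 to 0.33 for Cyp24a1, -0.16 to 0.81 for Cyp27b1, -0.31 to 0.18 for Cyp3a13, -0.48 to 0.063 for Cyp3a44, -0.75 to 0.069 for Cyp4b1, -0.36 to 0.17 for Cyp51 and -0.23 to 1.09 for Cyp7a1. Between the organs, Cyp2b10 was at 0.042 in CTR mice alone and 0.038 without livers TG2 and CTR1, and Cyp51 lost its call in 15 of 24 fits, with the mouse block among them (0.60). Members dim in 1 group, such as Cyp4f15, rest on signal near background.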
